A study of Mus musculus with 29 samples.

Results

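The 10 genes Fos, Fosb, Fosl1, Fosl2, Jun, Junb, Jund, Atf3, Batf and Batf3 encode the core proteins of the AP-1 family and their closest relatives. They were chosen by name from the 21938 protein-coding genes of the mouse annotation. For each gene the window analysed was the gene body plus 50 kb on either side on the mm10 assembly. The windows held 382 of the 304922 peaks in the series, which fell into 183 of its 168506 merged sites, where a site is a run of touching peaks from any of the samples. The windows of Atf3 and Batf3 overlap on chromosome 1 and share 5 of these sites, so the 10 windows taken one by one gave 188 pairs of site and gene.

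The data are anti-HA ChIP-seq peak lists from NIH-3T3 cells, a mouse fibroblast line. Every line carried the doxycycline-controlled activator rtTA3G and a lentiviral transgene for a transcription factor with an HA tag, and all were induced overnight with 500 ng/ml doxycycline and fixed with 1% formaldehyde. The labels list 29 samples, of which 28 have a peak list and belong to 24 constructs, while the input chromatin was not used here. The constructs were 21 wild-type factors (BHLHB8, BRACHYURY, CDX2, DLX1, DLX6, DUXBL, EBF1, FOXA1, HLF, MAX, NANOG, OCT4, PRR3, RHOX11, SIX6, SOX15, SOX2, TEAD1, THAP4, TOX3 and ZFP319), the FOXA1_RR and FOXA1_SW mutants, and OCT4-HA co-expressed with SOX2-YPET. Duplicate lists existed for BHLHB8-HA, SOX2-HA, FOXA1-HA and OCT4-HA, and the other 20 constructs had 1 list. The lists held 52 to 61991 peaks and give positions only, so read depth is unknown, the height of a peak is not known, and the fibroblast label could not be checked against expression. None of the 10 genes was itself expressed as a tagged factor. The peaks therefore describe where other, overexpressed factors were found near the AP-1 genes, with no measure of AP-1 binding or of the genes' transcription.

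AP-1 is a dimer of basic leucine zipper proteins. FOS proteins dimerise with JUN proteins, whereas JUN proteins can also pair with each other and with ATF and BATF proteins, and the dimers recognise the heptamer TGAGTCA or, on the other strand, TGACTCA, or the closely related octamer TGACGTCA of cAMP response elements. In fibroblasts, Fos, Fosb, Jun, Junb and Atf3 are classical immediate-early or stress-responsive genes switched on by serum and by stress kinases. AP-1 sites are abundant in the active enhancers of such cells.

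The sequences shown first are those of the most shared site of each gene that had a site with peaks of 5 or more constructs. Each is a stretch of 160 bp centred on the base pairs covered by the most constructs, from the GRCm38.p6 (mm10) assembly. Capitals mark the AP-1 heptamer in the Jun site, and elsewhere the palindromic E-box CAGCTG, a hexamer bound by basic helix-loop-helix factors such as BHLHB8, or the SOX core ACAATG or ACAAAG on either strand.
Fos site 23965 bp downstream of the start, chr12:85497659-85497818, plus strand: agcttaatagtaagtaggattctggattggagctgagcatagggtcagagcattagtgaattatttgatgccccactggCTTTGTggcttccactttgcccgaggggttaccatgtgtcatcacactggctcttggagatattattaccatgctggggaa
Fosl2 site 1883 bp upstream of the start, chr5:32133791-32133950, plus strand: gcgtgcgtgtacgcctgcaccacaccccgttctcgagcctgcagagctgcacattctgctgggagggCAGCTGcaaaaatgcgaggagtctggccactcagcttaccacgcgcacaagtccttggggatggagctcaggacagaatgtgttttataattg
Jun site 46387 bp upstream of the start, chr4:95098393-95098552, plus strand: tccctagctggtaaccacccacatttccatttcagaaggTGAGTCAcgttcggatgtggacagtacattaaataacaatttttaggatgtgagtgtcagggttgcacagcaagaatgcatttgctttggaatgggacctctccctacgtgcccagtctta
Jund site 26980 bp upstream of the start, chr8:70671834-70671993, plus strand: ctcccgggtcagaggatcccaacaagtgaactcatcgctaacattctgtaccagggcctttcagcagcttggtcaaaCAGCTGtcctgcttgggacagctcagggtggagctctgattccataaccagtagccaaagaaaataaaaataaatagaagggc
Atf3 site 36597 bp upstream of the start, chr1:191254644-191254803, plus strand: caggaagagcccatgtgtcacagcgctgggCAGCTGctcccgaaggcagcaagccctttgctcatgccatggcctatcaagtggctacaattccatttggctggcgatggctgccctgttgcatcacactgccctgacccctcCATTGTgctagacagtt
All 5 lay outside annotated exons. The Jun stretch, the 1 of these 5 with an AP-1 heptamer, was covered by peaks of BHLHB8-HA, DLX1-HA, DLX6-HA, EBF1-HA, HLF-HA, MAX-HA, SOX2-HA and TOX3-HA. CAGCTG was present in the Fosl2, Jund and Atf3 stretches. For Fosl2, a site 46269 bp upstream tied with 6 constructs and held an AP-1 heptamer. The tied site nearer the start was taken.

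Jun, the founding member of the JUN group, had the most constructs of the 10 genes. Its window held 27 sites made of 74 peaks from 15 of the 24 constructs, a number reached by 4.61% of all protein-coding genes. BHLHB8-HA had 19 sites in the window, DLX6-HA and SOX2-HA had 10 each, DLX1-HA had 6, DUXBL-HA had 4, and EBF1-HA and ZFP319-HA had 3 each. CDX2-HA had 2 sites, and FOXA1-HA, HLF-HA, MAX-HA, SIX6-HA, SOX15-HA, TEAD1-HA and TOX3-HA had 1 each. No other gene start lay within the Jun window, and Jun was the nearest gene for 23 of the 27 sites. The most shared site held peaks of 8 constructs and was centred 46387 bp upstream of the start (chr4:95098013-95099205, 1193 bp). A site of 6 constructs lay 30658 bp upstream, and was the only Jun site with a FOXA1-HA peak. A further site of 6 constructs lay 50946 bp downstream of the start, closer to Mysm1, whose start was 22176 bp away. Sites of 5 constructs lay 19380 bp downstream and 1623 bp upstream.

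Around the Jun start itself, 2 constructs had peaks within 1 kb. TEAD1-HA had a peak centred 491 bp upstream, and the EBF1-HA peak belonged to the site centred 1623 bp upstream. This site was 1306 bp wide and reached within 1 kb of the start at its edge. The other constructs of the site (BHLHB8-HA, CDX2-HA, DLX1-HA and DLX6-HA) had their peaks farther out, and no base pair was covered by more than 3 of the 5. No peak covered the 250 bp just before the start, which hold the octamer TGACATCA at position -45. This octamer resembles the known AP-1 element through which JUN regulates its own gene, and it or its reverse complement TGATGTCA was present in 2.93% of the 32851 RefSeq promoters of the same length.

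Jund, which encodes a JUN protein expressed broadly without induction, had 16 sites from 12 constructs. A site of 8 constructs was centred 26980 bp upstream (chr8:70671702-70672237, 536 bp), with peaks of BHLHB8-HA, DLX1-HA, DLX6-HA, EBF1-HA, HLF-HA, SIX6-HA, SOX2-HA and TOX3-HA. This site lay 1279 bp from the start of Lsm4, an RNA-binding protein gene, and 1 of the 16 Jund sites had Jund as its nearest gene. That site was centred 600 bp downstream of the Jund start in the coding exon and held peaks of BHLHB8-HA, DLX1-HA, TEAD1-HA and TOX3-HA. At most 3 of these covered the same base pair. TOX3-HA had 3 sites in the Jund window, more than in any other of the 10 windows.

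Junb, whose protein often opposes JUN, had 28 sites, the largest number among the 10 genes, but from 9 constructs and with at most 3 at a site. BHLHB8-HA had 17 of these sites and TEAD1-HA had 6, while SOX2-HA had none. The Junb window was crowded, with 9 other gene starts, and 6 of the 28 sites had Junb as their nearest gene. A site of BHLHB8-HA and FOXA1-HA was centred 2 bp from the Junb start. Sites of EBF1-HA and ZFP319-HA followed 1048 bp upstream, and of BHLHB8-HA and EBF1-HA 2470 bp upstream. With 27 sites for Jun and 28 for Junb the density was nearly alike, and 0.898% and 0.725% of all genes had at least as many sites per 100 kb. The Jun sites were shared by more constructs.

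**Figure D1:**
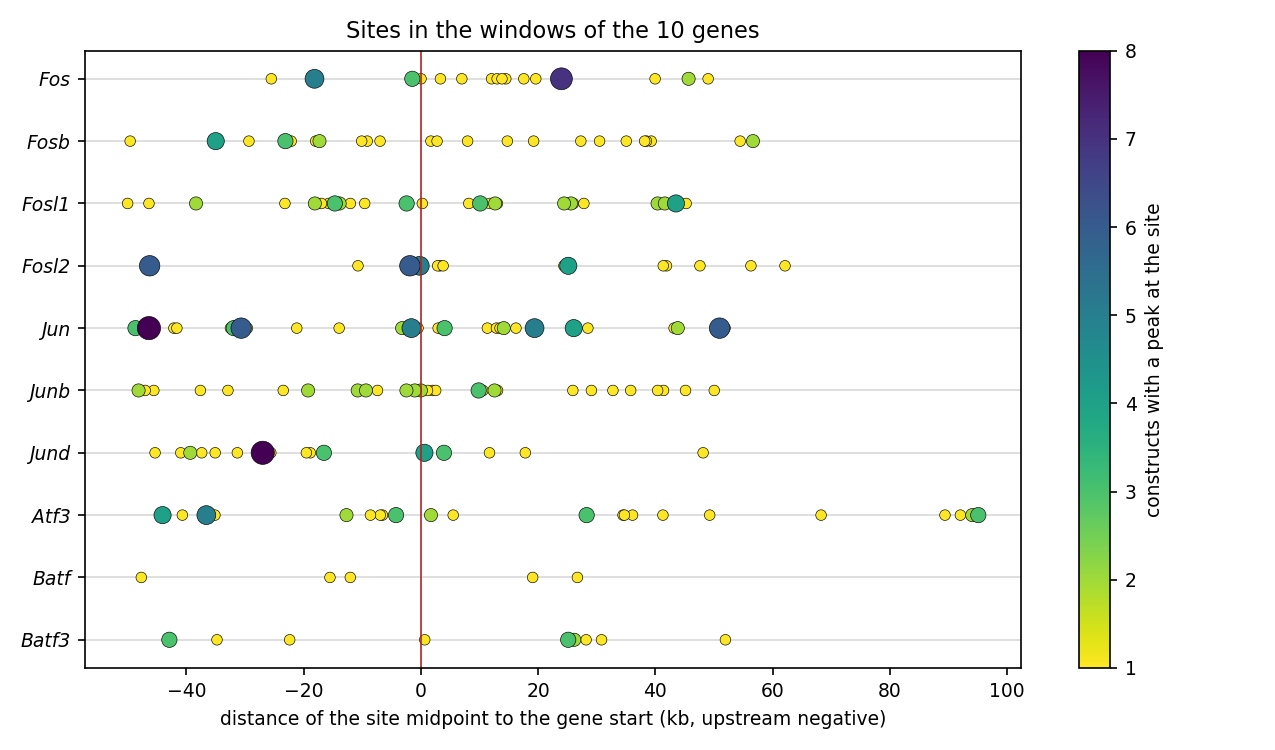
Each point is a merged site in the window of 1 of the 10 genes (rows), placed by the distance of its midpoint to the gene start in kb, with upstream sites at negative values. Point size and colour give the number of constructs with a peak at the site, from 1 to 8, and the red line marks the start. The sites of 8 constructs lay upstream of Jun and Jund, and Batf had 5 sites, all of a single construct.

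Among the FOS genes, Fos had 16 sites from 10 constructs, all of them nearer to Fos than to any other gene. Its most shared site held peaks of 7 constructs (BHLHB8-HA, DLX1-HA, DLX6-HA, DUXBL-HA, EBF1-HA, SIX6-HA and SOX2-HA) and was centred 23965 bp downstream of the start, beyond the end of the gene (chr12:85497403-85498307, 905 bp). A site of 5 constructs lay 18149 bp upstream, although at most 4 of them covered the same base pair. A site of BHLHB8-HA, EBF1-HA and TOX3-HA lay 1465 bp upstream. At the start itself BHLHB8-HA had the only peak. TEAD1-HA, which had a peak near each of the other 9 genes, had none in the Fos window.

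Fosl2, which encodes FRA-2, had 15 sites from 11 constructs, with 3 sites of 5 or more. The sites of 6 constructs were centred 46269 bp and 1883 bp upstream, and a site of 5 (BHLHB8-HA, DLX6-HA, TEAD1-HA, TOX3-HA and ZFP319-HA) was centred 198 bp upstream of the start. At least 1 base pair of each of the 3 was covered by all its constructs. Fosl2 and Jun were thus the 2 genes of the 10 with a site of 5 or more constructs reaching within 1 kb of the start, a feature of 3.81% of all protein-coding genes. When constructs were instead counted by their own peaks within 1 kb, a choice made after seeing the data, Fosl2 had 5, Junb and Jund had 4 each and Jun had 2, and 4.75% of all genes had 5 or more. The count of sites at the start depended on BHLHB8-HA and on the way peaks were joined. Neither gene retained such a site with BHLHB8-HA left out, or with replicate 1 of BHLHB8-HA and the other duplicated factors left out. Nor did either with peaks trimmed to their central 200 bp, or with peaks of at least 300 bp alone. The share of all genes with such a site fell as well, from 3.81% to 1.64%, 2.80%, 2.24% and 1.01% in the same order.

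Fosl1, which encodes FRA-1, and Fosb had no site of more than 4 constructs. Fosl1 had 27 sites from 11 constructs, of which BHLHB8-HA contributed to 17 and DLX1-HA to 8, its highest number at any of the 10 genes. The Fosl1 window held 10 other gene starts, and 3 sites had Fosl1 as nearest gene. These included a site of BHLHB8-HA, EBF1-HA and SIX6-HA 2438 bp upstream and a BHLHB8-HA site 242 bp downstream of the start. The site of 4 constructs lay 43501 bp downstream in an intron of Cfl1, the cofilin gene, 593 bp from its start. No base pair of this site was covered by more than 3 constructs. Fosb had 23 sites from 10 constructs, with 9 sites of BHLHB8-HA, 6 of ZFP319-HA, 5 of TEAD1-HA and 3 of RHOX11-HA. Its site of 4 constructs was 35001 bp upstream and 274 bp from the start of Ercc1, a DNA repair gene. There too, at most 3 constructs covered the same base pair. No peak of any construct lay within 1 kb of the Fosb start. The 1 peak of OCT4-HA co-expressed with SOX2-YPET in the 10 windows lay in that of Fosb.

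Atf3, a stress-induced member, had 22 sites from 11 constructs. SOX2-HA contributed to 7 of them, DLX6-HA to 5 and DLX1-HA and TEAD1-HA to 4 each, against 8 for BHLHB8-HA. A site of 5 constructs (BHLHB8-HA, DLX1-HA, DLX6-HA, EBF1-HA and SOX2-HA) was centred 36597 bp upstream (chr1:191254390-191254882, 493 bp), and a site of 4 lay 44068 bp upstream. No peak lay within 1 kb of the Atf3 gene start. The gene has a second coding transcript start, 34699 bp further downstream, and there a site of HLF-HA and a site of BHLHB8-HA lay within 1 kb.

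Batf and Batf3, which encode the BATF partners of JUN best known from lymphocytes and dendritic cells, had the fewest sites. Batf had 5 sites, 3 of BHLHB8-HA and 2 of TEAD1-HA, none shared, and 87.7% of all genes had peaks of at least as many constructs. The sites lay 12041 to 47688 bp from its start. Batf3 had 9 sites from 8 constructs. A site of BHLHB8-HA, DLX1-HA and SOX2-HA lay 42906 bp upstream, although at most 2 of them covered the same base pair. A site of DLX6-HA, FOXA1-HA and SOX2-HA lay 25125 bp downstream in the stretch that the Atf3 window also covers. TEAD1-HA had a peak 654 bp downstream of the start in the coding exon.

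**Figure D2:**
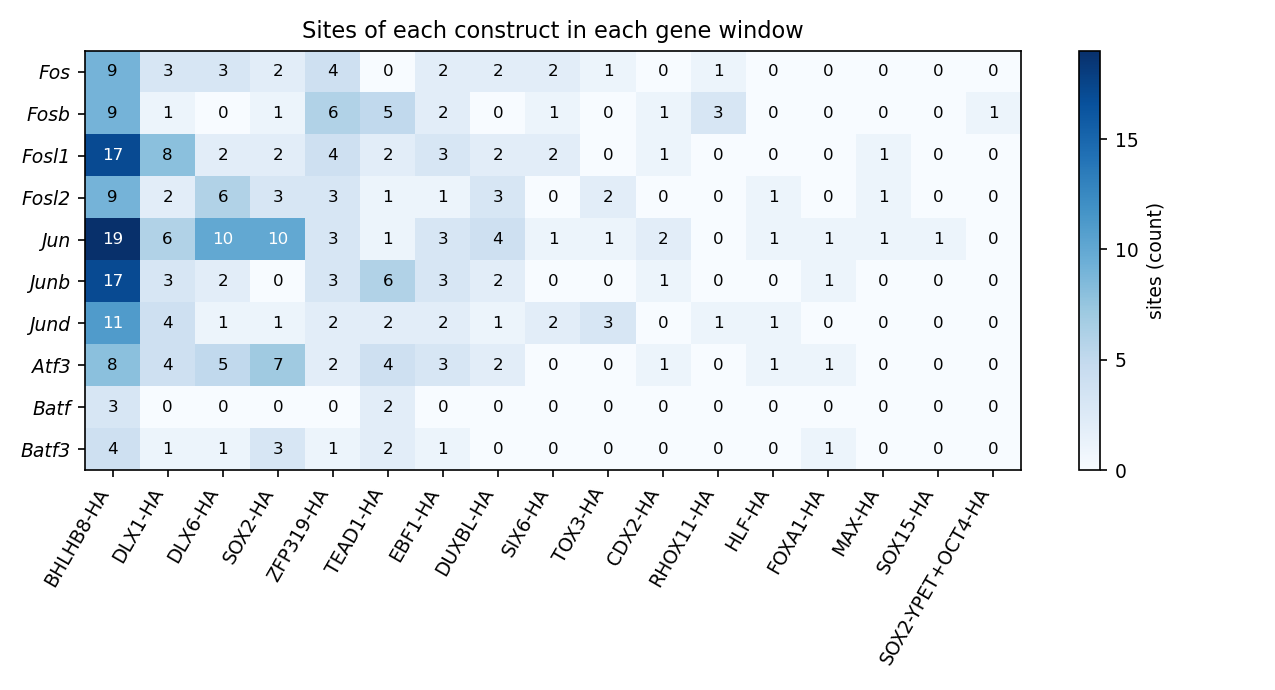
Each cell gives the number of merged sites with a peak of the construct (columns, ordered by their total) in the window of the gene (rows), for the 17 constructs with any peak there. BHLHB8-HA reached from 3 sites at Batf to 19 at Jun, and SOX2-HA had 10 sites at Jun and none at Junb.

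Set against the whole genome, the median of the 10 genes was 10.5 constructs per gene (range 2 to 15) against 7 for all protein-coding genes, and 19 sites against 12. The order of the genes ran from Jun (15), Jund (12), Fosl1, Fosl2 and Atf3 (11 each), Fos and Fosb (10 each), Junb (9) and Batf3 (8) to Batf (2). Because most constructs had a single list, neighbours in this order have no replicate spread by which to tell them apart. A site of 5 or more constructs was present for 5 of the 10 genes (Fos, Fosl2, Jun, Jund and Atf3), against a background of 36.2%. A site of 8 or more was present for Jun and Jund, with a background of 11.7%. No gene had a site of 10 or more constructs, which 4.06% of all genes did, and the largest number at a site in the genome was 24. Any peak within 1 kb of the start was found for 7 of the 10 genes against 57.3% of all genes, so this count was close to the background. The median length of the 10 genes was 7878 bp against 17425 bp for all genes, so their windows were shorter in the median. Within 50 kb of the gene start alone the median was 10 constructs against 6.

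**Figure D3:**
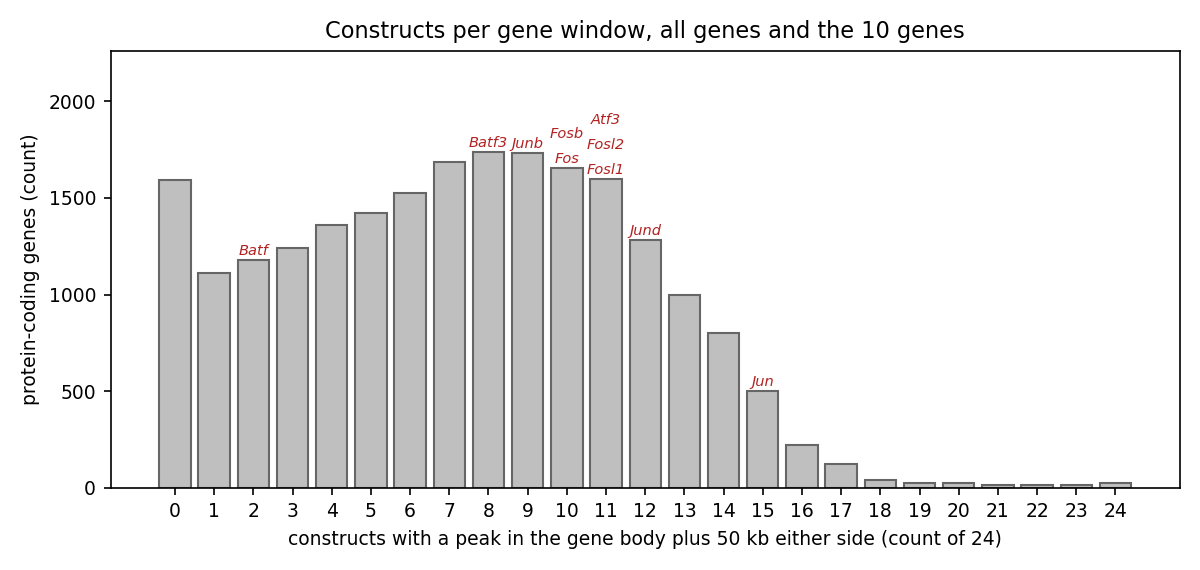
Bars count the 21938 protein-coding genes (vertical axis) by the number of the 24 constructs with a peak in the gene body plus 50 kb either side (horizontal axis). The names of the 10 genes stand above the bar they belong to, and all but Batf lie at 8 constructs or more, against a median of 7 for all genes.

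The constructs differed in how many of the genes they reached, and the share of all genes reached by each is given as its background. A construct was counted for a gene when a site with its peak overlapped the window. BHLHB8-HA was counted in all 10 windows, with a background of 86% of all genes. DLX1-HA (background 60.6%), TEAD1-HA (68.8%), ZFP319-HA (59.4%) and EBF1-HA (38.8%) reached 9 genes each. DLX6-HA (53.1%) and SOX2-HA (57.8%) reached 8, and DUXBL-HA (64.2%) reached 7. CDX2-HA (56.4%) and SIX6-HA (27.8%) reached 5. Peaks of FOXA1-HA (28.2%), HLF-HA (15.7%) and TOX3-HA (10.1%) were near 4 genes, and peaks of MAX-HA (23%) and RHOX11-HA (34.3%) near 3. SOX15-HA (22%) and OCT4-HA with SOX2-YPET (15.9%) reached 1 gene each, Jun and Fosb respectively. The remaining 7 constructs had no peak in any of the windows. Their background was 3.92% for BRACHYURY-HA, 1.83% for NANOG-HA, 0.921% for FOXA1_RR-HA, 0.884% for FOXA1_SW-HA, 0.77% for OCT4-HA, 0.451% for PRR3-HA and 0.447% for THAP4-HA.

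EBF1, a factor of the B cell and fat cell lineages, had 19 sites in the windows, 0.251% of all EBF1-HA sites. TOX3, an HMG-box protein, had 7 sites, or 0.553% of its 1266 sites in the genome, the largest share of any construct. All 7 were shared with another construct, as were 95.8% of TOX3-HA sites in the genome. CDX2-HA placed 6 of 25191 sites there, or 0.0238%. Of the merged sites of all constructs together, 183 of 168506 lay there. The TOX3-HA share rests on 1 list of 1286 peaks, with 3 of its 7 sites in the Jund window. No other construct was present at 18 of 24 TEAD1-HA sites (75%, against 67.1% of TEAD1-HA sites in the genome), 18 of 27 ZFP319-HA sites (66.7% against 74.02%), 2 of 19 EBF1-HA sites (10.5% against 15.3%), 2 of 32 DLX1-HA sites (6.25% against 9.19%) and 57 of 105 BHLHB8-HA sites (54.3% against 61.7%). For these constructs the shares at the 10 genes were thus near those of the genome. DUXBL-HA was alone at 7 of 16 sites, or 43.8%, against 76.01% in the genome.

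**Figure D4:**
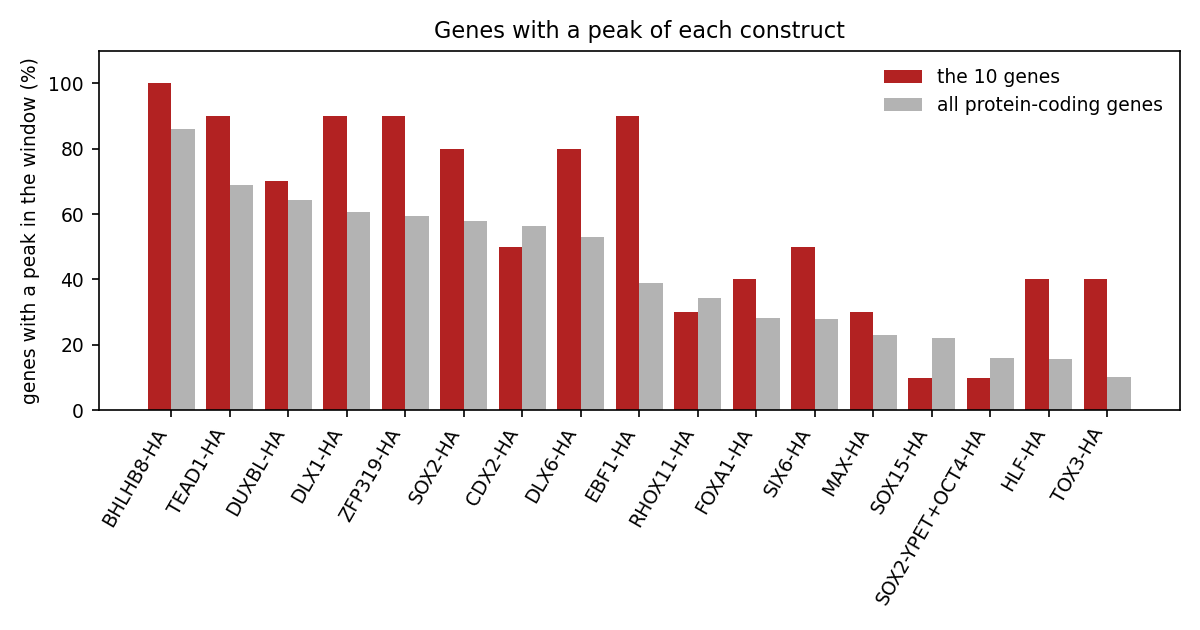
For the 17 constructs with a peak in the windows, the red bar gives the percent of the 10 genes with a peak and the grey bar the percent of all protein-coding genes, both on a vertical axis from 0. Red bars stood above the grey ones, as for EBF1-HA with 9 of the 10 genes against 38.8%, or below them, as for SOX15-HA with 1 of the 10 against 22%.

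Where replicates existed they bore on the counts differently. The BHLHB8-HA lists had 81 and 86 peaks in the windows, of which 60 of each overlapped, and both lists reached all 10 genes (77.2% and 84.4% of all genes for replicates 1 and 2). SOX2-HA replicate 1 had 27 peaks near 8 genes, whereas replicate 2 had 2 peaks, both overlapping replicate 1, at Jun and Atf3. Replicate 2 was the shorter list, with 5692 against 25049 peaks, and reached 25.6% of all genes against 57.3%. FOXA1-HA replicate 1 had 3 peaks and replicate 2 none, with 6033 and 1099 peaks in the lists. OCT4-HA had no peak in either list. All SOX2-HA sites described above therefore rest on replicate 1, with 2 of them in both lists, and those of FOXA1-HA on replicate 1 alone.

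Among the 12 sites of 5 or more constructs, the shares with BHLHB8-HA and DLX6-HA were near those of such sites in the genome. The shares with EBF1-HA and DLX1-HA were larger and that with SOX2-HA was smaller. All 12 carried BHLHB8-HA and DLX6-HA, 11 carried DLX1-HA, 9 carried SOX2-HA and 7 carried EBF1-HA. Across the genome, sites of 5 or more constructs carried BHLHB8-HA in 94.05%, DLX6-HA in 90.05%, SOX2-HA in 87.7%, DLX1-HA in 80.7% and EBF1-HA in 34.4%. TOX3-HA was at 4 of the 12 against 8.47%, DUXBL-HA at 4 against 34.5%, SIX6-HA at 3 against 39.2%, FOXA1-HA at 1 against 37.1% and SOX15-HA at none against 37.7%. With 12 independent sites, a count of 0 would allow a share of up to 25%, but 5 of the 12 lay in the Jun window. This limit covers counting error only, and the differences were not tested. The midpoint of all 12 lay outside protein-coding genes, as it did for 54.3% of all sites of 5 or more constructs. From the gene start 9 of the 12 lay over 10 kb away, against 84.3% of the 15329 such pairs of site and gene over all genes. Upstream of the start lay 9, against 36.6% of these pairs. The 10 genes were shorter in the median (7878 bp against 17425 bp), and the part of this in these positions was not tested. For 10 of the 12 the nearest gene start was that of the member itself. They were 833 bp wide in the median, against 291 bp for sites of a single construct. At 9 of the 12, at least 1 base pair was covered by all the constructs counted, compared with 68.7% of such sites in the genome. The exceptions were the Fos site 18149 bp upstream and the Jun sites 1623 bp upstream and 50946 bp downstream.

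Sites of a single construct made up 124 of the 183 (67.8%), against 76.3% of all sites. Sites of 2 constructs numbered 26, of 3 or 4 constructs 21 and of 5 to 9 constructs 12, the last class amounting to 6.56% against 5.17%. By position, 7 of the 188 pairs of site and gene (3.72%) lay within 1 kb of the start, against 5.33% of pairs over all genes. A further 35 (18.6% against 12.2%) lay 1 to 10 kb away and 132 (70.2% against 53.4%) lay 10 to 50 kb away. Over 50 kb away lay 14 (7.45% against 29.1%). How far a window reached from the start depended on gene length, with a median of 7878 bp against 17425 bp for all genes. The part of gene length in these shares was not tested. By the annotation of their midpoints, 117 of the 183 sites lay outside protein-coding genes, 29 in introns and 17 in untranslated regions. Coding exons held 13 and other exons 7. This annotation was not made for all sites of the genome, so these counts have no background here.

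The AP-1 heptamer was counted in the sites as a description of their sequence, with the exact letters TGAGTCA and TGACTCA, which are reverse complements of one another. In the central 200 bp of the site it was present in 23 of 183 sites (12.6%, exact 95% interval 8.14 to 18.3%), against 9.81% of all sites. The interval takes the sites as independent, although they lie in 10 windows, and is no test of this difference. By sharing, the share was 8.06% at sites of a single construct, 23.1% at 2 constructs and 33.3% at 3 or 4, against 7.10%, 14.2% and 19.9% in the genome. At the 12 sites of 5 or more constructs the heptamer was not found in the central 200 bp, against 24.5% of such sites in the genome. This count changed with the stretch searched. In 200 bp centred on the base pairs covered by the most constructs, a choice made after seeing the data, 3 of the 12 sites held the heptamer (25%, against 33.9% in the genome), and in the whole site 4 of the 12 did (33.3% against 52.8%). The 3 sites were those of Jun 46387 bp upstream and 50946 bp downstream and of Fosl2 46269 bp upstream. By the same re-centred measure the share over all 183 sites was 15.3% against 10.9%, and 9 of the 10 genes had such a site, all except Batf. Of all protein-coding genes 58.4% had one, with a median of 12 sites in the window against 19 for the 10 genes, and the part of this difference in the count was not tested.

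**Figure D5:**
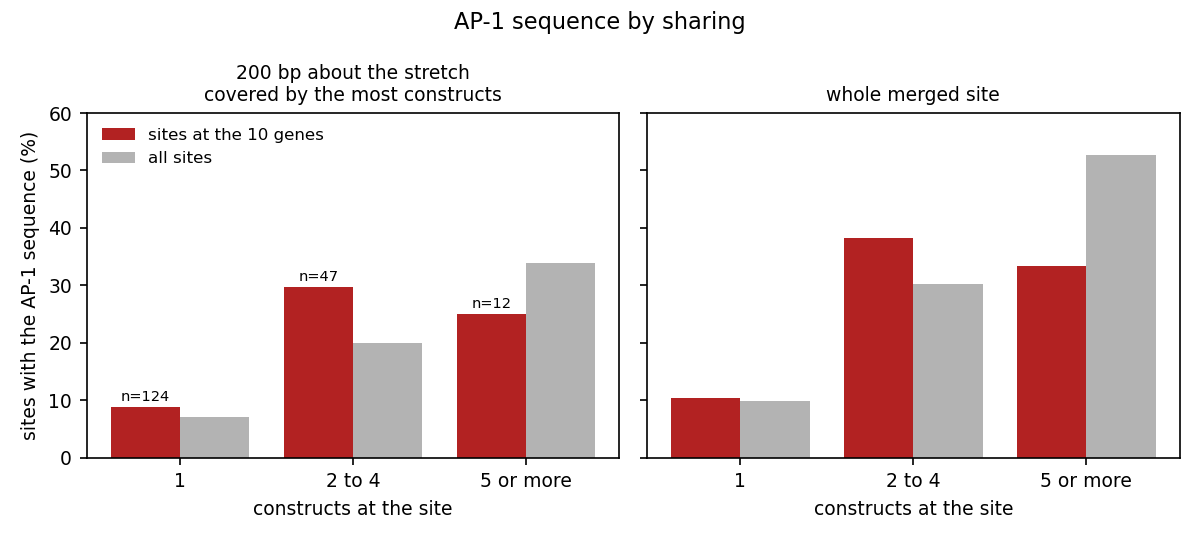
Bars give the percent of sites with the AP-1 heptamer for the sites at the 10 genes (red) and all sites (grey), by the number of constructs at the site, in 200 bp about the stretch covered by the most constructs (left) and in the whole merged site (right). At the 10 genes the share was 8.87% for 1 construct, 29.8% for 2 to 4 and 25% for 5 or more on the left, where n gives the number of sites.

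Sites with the heptamer under peaks of more than 1 construct are shown for 5 of the genes, as 61 bp from the plus strand of GRCm38.p6 with the heptamer in capitals. They were chosen as the site of most constructs not already printed. Fos, Fosb and Batf3 also had such a site, with the heptamer under peaks of 2 constructs each, and these are not printed.
Fosl1 site 13863 bp upstream of the start, chr19:5433514-5433574, plus strand: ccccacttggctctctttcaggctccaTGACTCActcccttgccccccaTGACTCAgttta
Fosl2 site 46269 bp upstream of the start, chr5:32089691-32089751, plus strand: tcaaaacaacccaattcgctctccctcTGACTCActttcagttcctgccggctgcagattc
Jun site 50946 bp downstream of the start, chr4:95001561-95001621, plus strand: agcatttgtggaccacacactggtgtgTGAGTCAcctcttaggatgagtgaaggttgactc
Jund site 3932 bp downstream of the start, chr8:70702930-70702990, plus strand: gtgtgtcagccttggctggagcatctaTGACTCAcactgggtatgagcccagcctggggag
Atf3 site 4240 bp upstream of the start, chr1:191222161-191222221, plus strand: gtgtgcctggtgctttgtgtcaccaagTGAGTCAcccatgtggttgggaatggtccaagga
The Fosl2 heptamer was covered by peaks of BHLHB8-HA, DLX1-HA, DLX6-HA, DUXBL-HA, SOX2-HA and ZFP319-HA. The Jun site held 2 heptamers, the second of which runs past the end of the printed stretch, and both were covered by 5 of the 6 constructs, all but CDX2-HA. Those of Jund and Atf3 were covered by 3 constructs each, while the Fosl1 sequence held the heptamer at 2 places 22 bp apart. In all, 41 heptamers lay in 35 of the member sites, and 9 of these were covered by 3 or more constructs. BHLHB8-HA covered 23 of the 41 heptamers, DLX1-HA 14, SOX2-HA 11, DLX6-HA 10, DUXBL-HA, EBF1-HA and ZFP319-HA 5 each, and TEAD1-HA 2. Of the 183 sites, 105 had a peak of BHLHB8-HA, 32 of DLX1-HA, 29 of DLX6-HA and 27 of SOX2-HA. Covered heptamers were not counted over all sites of the genome, so these numbers have no background here.

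By construct, in the re-centred 200 bp, the heptamer was present at 12 of 32 DLX1-HA sites (37.5%, against 30.7% of DLX1-HA sites in the genome), 9 of 27 SOX2-HA sites (33.3% against 30.3%), 5 of 19 EBF1-HA sites (26.3% against 24.4%), 7 of 29 DLX6-HA sites (24.1% against 28.02%), 4 of 27 ZFP319-HA sites (14.8% against 8.01%) and 16 of 105 BHLHB8-HA sites (15.2% against 12.2%). None of 24 TEAD1-HA sites held it, which allows a share of up to 12.5% if sites are independent, and 1.97% of TEAD1-HA sites in the genome did. The octamer TGACGTCA of cAMP response elements was absent from the central 200 bp of all 183 sites, against 0.229% of all sites. That absence allows up to 1.64% if sites are independent. TGACATCA or TGATGTCA was found in 2 sites (1.09% against 1.25%) and the CArG box, the serum response factor element, in 2 (1.09% against 1.04%).

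The cores of the expressed factors themselves were counted too. CAGCTG was present in the re-centred 200 bp of 40 of 105 member sites with a BHLHB8-HA peak (38.1%) and of 5 of 78 without (6.41%), against 34.4% and 6.63% over all sites. ACAATG or ACAAAG was present at 12 of 27 SOX2-HA sites (44.4% against 50.7%) and at 22 of the 156 others (14.1% against 23.01%). TAATTA, a core for homeodomain factors, was present at 2 of 32 DLX1-HA sites and 2 of 29 DLX6-HA sites (6.25% and 6.90%, against 7.57% and 9.29%). These 3 patterns were added after the data were seen.

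BHLHB8-HA had a peak on the start of Fos and Fosl2 in replicate 1 and of Fosl1 and Junb in both replicates. The promoters of Fos and Junb are printed, since Fosl1 had no entry in the promoter table and the entry of Fosl2 overlapped an exon, as 250 bp before the RefSeq start on the strand of the gene, GRCm38.p6, with CAGCTG in capitals.
Fos promoter, chr12:85473640-85473889, plus strand: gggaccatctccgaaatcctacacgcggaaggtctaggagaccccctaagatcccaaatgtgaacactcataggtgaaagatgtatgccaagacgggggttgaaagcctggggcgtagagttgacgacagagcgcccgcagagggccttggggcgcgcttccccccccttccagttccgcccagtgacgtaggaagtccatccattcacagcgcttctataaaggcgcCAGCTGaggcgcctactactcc
Junb promoter, chr8:84978749-84978998, minus strand: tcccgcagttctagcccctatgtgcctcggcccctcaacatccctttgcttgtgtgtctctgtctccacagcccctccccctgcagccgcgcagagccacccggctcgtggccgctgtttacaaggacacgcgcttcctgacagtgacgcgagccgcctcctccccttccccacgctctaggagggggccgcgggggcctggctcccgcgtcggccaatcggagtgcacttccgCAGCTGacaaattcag
Both held CAGCTG close to the start, at position -22 in Fos and -16 in Junb, counted back from the RefSeq start. CAGCTG was present in 13.0% of the 32851 RefSeq promoters of this length. The Atf3 entry, at its second coding start, had peaks of BHLHB8-HA and HLF-HA and no CAGCTG. The Jund entry, 1210 bp from the gene start used here, held CAGCTG at position -173 and had no peak. The Fosl2 entry, 671 bp from its gene start, had neither a peak nor CAGCTG. The whole merged site on the Fosl2 gene start (1210 bp) held no CAGCTG, while that on the Fosl1 start (564 bp) held 1. In neither the Fos nor the Junb promoter were the exact letters of the AP-1 heptamer (4.46% of all), TGACGTCA (1.55%) or the CArG box (1.47%) found within these 250 bp. Apart from TGACATCA and TGATGTCA, variants were not searched, so tgacgtag in the Fos stretch was not counted. Sequence farther upstream was not searched either.

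Other genes of the AP-1 pathway were counted in the same way. Among 10 further basic leucine zipper partners of AP-1, the median was 12 constructs, with Atf7 (17), Maff (15) and Mafk (13) highest, and 7 had a site of 5 or more constructs. Among 12 upstream kinases and factors the median was 11, led by Mapk9 (15), which encodes the kinase JNK2, and by Mrtfa (14), and 7 had a site of 5 or more. Among 12 other immediate-early genes the median was 12, led by Ier3 (16) and Btg2 (14), and 10 had a site of 5 or more. Among 12 AP-1 target genes the median was 10, led by Ccl2 (17), Cd44 (16) and Vegfa (14), and 7 had such a site. Against the 36.2% background, 5 of the 10 AP-1 genes was the smallest share among these lists. A site of 10 or more constructs, absent from the 10 genes, was present for 2 of the 10 partners, 2 of the upstream factors, 1 of the immediate-early genes and 2 of the targets.

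The genes whose pattern over the 24 constructs was most like that of Jun, by Pearson correlation of log2(1 + peaks in the window), were Gprc5d (0.967), Plekho2 (0.965) and Bcl10 (0.964). For Jund they were Tns2 (0.941), Spryd3 (0.939) and Slc22a21 (0.933), and for Fosl1 Bik (0.972), Zbtb38 (0.967) and Gsdmd (0.964). Within the family, Jun was most like Atf3 (0.904) and Fosl2 (0.893), and the pair Fos and Batf was the least alike (0.338). These correlations are descriptions over 24 constructs that share list lengths, since a long list places peaks in most windows, and neighbouring windows such as those of Atf3 and Batf3 (0.896) share sites.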

How the data were processed

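Anti-HA ChIP-seq peak lists of 28 samples from NIH-3T3 cells were analysed. The authors aligned paired-end reads to mm10 with STAR 2.5.3a keeping reads with a single alignment. Duplicates were dropped with Picard, and peaks were called per sample with MACS2 2.1.1.20160309. The deposited lists leave out regions that were also called in the input or are on the ENCODE blacklist. The deposited files hold chromosome, start and end in bp, with no score or read number, so depth and its precision are unknown.

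Groups and replicate numbers came from the labels. Duplicate lists of a construct were merged, and peaks sharing at least 1 bp or touching were joined into sites. A wide site can join peaks that do not cover a common base pair. A site was counted for a gene when it overlapped the gene body plus 50 kb in GENCODE vM21, together with all constructs of the site, and counting own peaks changed no count for the 10 genes and at most 15 of 21938 genes for a construct. The distance ran from the site midpoint to the 5′ end of the gene, and upstream is negative in the plot. Sequences were read from GRCm38.p6 and RefSeq promoter tables, of which 9 of the 10 genes had an entry, and exact letters were searched on both strands. Coordinates count from 1. Python 3.11.15, NumPy 2.4.6 and Matplotlib 3.10.9 were used. The window and site counts were tested on simulated data, where all 200 planted windows came back.

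All 10 genes are named. In the 4 further gene lists the up to 3 genes with the most constructs are named, except 1 that is not reported here, and Mkl1, listed beside its newer symbol Mrtfa, had no entry of its own. Similar genes are the 3 with the highest correlation that lie at least 1 Mb away, for the 3 genes with the most constructs, where Fosl1, Fosl2 and Atf3 tied and Fosl1 was taken. The genes and lists were chosen with earlier results of these data known. No test was run across genes or sites, since 20 of 24 constructs have 1 list and sites are not replicates. Counts are set beside the same count over all protein-coding genes or all sites.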

Additional observations from a re-analysis of the deposited data

How the results depend on the processing

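The 7 summary values of the report were recomputed under other choices, giving 78 values, of which 66 stayed within 1.5 times the reported value or, for the AP-1 share, within its counting interval. A value of 0 counted as unchanged only where the reported value was 0, as for sites of 10 or more constructs. The number of sites was 66 with 10 kb either side, 326 with 100 kb and 112 with peaks of at least 300 bp, against 183. The genes with a site of 5 or more constructs numbered 2 with 10 kb and 3 with peaks of at least 300 bp, against 5, while the share of all genes fell from 36.2% to 18.8% and 18.9%. The genes with such a site within 1 kb of the start numbered 0 with peaks of at least 300 bp (1.01% of all genes). They also numbered 0 with peaks trimmed to 200 bp (2.24%) and without the construct with the longest list, BHLHB8-HA (1.64%). The number was 1 within 500 bp (3.43%) or with constructs counted by their own peaks (4.75%), against 2 (3.81%). Leaving out a replicate gave 0 to 2, the 0 being without replicate 1 (2.80%). The AP-1 share was 19.1% over whole sites. None of the 10 genes had a site of 10 or more constructs under any of these choices, against 1.23% to 6.43% of all genes. The median number of constructs was 7 to 12 for the 10 genes against 4 to 10 for all genes, and above that of all genes each time. No paired analysis was possible because no result comes from a test. Depth is unknown, so a missing peak does not show that a factor was absent.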
